A study of Macaca mulatta with 51 samples.

Results

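The genes described here were chosen by name, with earlier results of these data known. The set comprised 10 regulators and enzymes linked to brown fat thermogenesis and to the creatine cycle. They were PPARGC1A, PPARGC1B, ESRRA, ESRRG, PRDM16, CIDEA and DIO2 on the side of brown fat, and SLC6A8, GATM and CKB on the side of creatine. Of the 16033 genes in the count table, 8 were members of this set, and all 8 were tested in both tissues; PRDM16 and CIDEA were not analysed here. RNA had been sequenced from punch biopsies of subcutaneous adipose tissue (AT) and of gastrocnemius, a skeletal muscle (SM) of the calf, of obese rhesus macaques (Macaca mulatta). Biopsies date from before treatment with FGF21, a hormone that alters energy metabolism (pre-treatment), from the end of 12 weeks of daily dosing (post-treatment), and from a washout time point, 16 weeks past the last dose. All 10 animals were non-diabetic, 5 were males and 5 were ovariectomized females, they were 11 to 22 years old, and each had been kept on high-fat food for 2 years or more. Native human FGF21 was injected under the skin once a day at doses raised from 10 to 1000 ug per kg, and 1 animal was held at 300 ug per kg. Animals were sampled repeatedly, although not every animal had a library at every time point, and no untreated animals are among these samples. The study reports that the animals lost weight over the treatment and regained it over the washout. Treatment, weight change and the passage of time therefore cannot be told apart.

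Brown and beige adipocytes burn fuel to make heat, classically by letting protons leak back into mitochondria through UCP1. PPARGC1A and PPARGC1B (PGC-1 alpha and beta) are coactivators that raise mitochondrial gene transcription, in large part by working with the nuclear receptors ESRRA and ESRRG (ERR alpha and gamma), and DIO2 makes active thyroid hormone inside the cell. In the proposed creatine cycle of beige fat, creatine is phosphorylated with ATP and the phosphate is removed again, so that ATP is spent as heat without UCP1. GATM carries out the first step of creatine synthesis, SLC6A8 takes creatine into the cell, and CKB is a creatine kinase of the cytosol. In muscle, creatine and its kinases buffer ATP for contraction, and the PGC-1 and ERR proteins set oxidative capacity.

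Counts were available for 27 AT libraries (10 pre-treatment, 9 post-treatment, 8 washout) from 10 animals and for 21 SM libraries (6, 8 and 7) from 8 animals, with total counts of 14455195 to 23940980 per library. Levels are given as counts scaled to a common library total (CPM) on the scale of 1 tissue unless stated, as mean ± SD over libraries, or as lowest, median and highest. No gene lengths were used here, so levels are compared between samples but not between genes. Each library held the markers of its labelled tissue. The sum of 10 muscle fibre markers lay between 67.2 and 521 CPM in AT and between 60676 and 272392 CPM in SM, and that of 5 adipocyte markers between 14373 and 48659 CPM in AT and between 68.5 and 1609 CPM in SM. The Entrez identifiers of the 8 genes in the table were 10891 for PPARGC1A, 133522 for PPARGC1B, 2101 for ESRRA, 2104 for ESRRG, 1734 for DIO2, 6535 for SLC6A8, 2628 for GATM and 1152 for CKB. A gene was called differentially expressed (DE) where its log2 fold change exceeded 0.26 in size and its adjusted p was below 0.05. Tests were edgeR quasi-likelihood tests with the animal in the model, and p-values were adjusted by the Benjamini-Hochberg method over all genes tested.

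Before treatment, GATM, PPARGC1A, SLC6A8 and ESRRA were at higher levels in SM than in AT, and CKB was higher in AT. On a scale common to both tissues, GATM stood at 47.3 ± 13.5 CPM in AT (n = 10) and 525 ± 187 CPM in SM (n = 6), a log2 fold change of -3.52 (SE 0.25) for AT compared to SM. PPARGC1A stood at 5.42 ± 2.55 CPM in AT and 86.7 ± 131 CPM in SM (-3.37, SE 0.40). Animal 20275 stood at 354 CPM in SM, where the median was 37.3 CPM, beside a median of 5.51 CPM in AT. SLC6A8 was lower in AT by a log2 fold change of -2.47 (SE 0.19), from 282 ± 40.4 CPM in SM to 50.8 ± 8.31 CPM in AT. ESRRA, at 25.4 ± 3.28 CPM in AT and 109 ± 40.8 CPM in SM, was lower in AT as well (-2.07, SE 0.24). These 4 differences had edgeR adjusted p-values between 4.48e-15 and 2.14e-09.

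CKB was DE in the other direction, at 5.17 ± 1.70 CPM in AT and 0.917 ± 0.565 CPM in SM (log2 fold change 2.66, SE 0.59, edgeR adjusted p = 0.00012). Its counts in the pre-treatment SM libraries were only 3 to 26 reads. ESRRG (-1.12, SE 0.30, edgeR adjusted p = 0.000903) and PPARGC1B (-0.61, SE 0.19, edgeR adjusted p = 0.00419) were lower in AT by TMM normalization. Scaling by library size alone gave 0.14 for PPARGC1B and -0.37 for ESRRG (adjusted p = 0.251), so that the order of PPARGC1B turned and the call of ESRRG was lost. DIO2, at 17.9 ± 17.1 CPM in AT and 8.60 ± 4.37 CPM in SM, was not DE (0.53, SE 0.49, edgeR adjusted p = 0.324), although library size alone gave 1.27 (adjusted p = 0.0326). In all, 7 of 8 members differed between the tissues, 1 higher and 6 lower in AT, whereas 77.1% of the 13662 genes tested differed (41.8% higher, 35.3% lower in AT), and 78.8% had an unadjusted p under 0.05.

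In AT, SLC6A8 was called DE lower post-treatment, and PPARGC1A and GATM were called DE higher at washout compared to post-treatment. Taken in either direction, these counts were not above the shares of all genes, 15.5% and 35.4%. By direction, 1 of 8 was lower beside 8.49% of all genes, and 2 of 8 were higher beside 17.6%. The fitted value of PPARGC1A post-treatment (-0.79) was further from 0 than that of SLC6A8 (-0.48) and was not DE by edgeR. Post-treatment compared to pre-treatment, 1 of 8 members was DE, beside 15.5% of all genes tested (6.98% higher, 8.49% lower), and 2 of 8 had an unadjusted p under 0.05, beside 34.3% of all genes. At washout compared to post-treatment it was 2 of 8, beside 35.4% of all genes (17.6% higher, 17.8% lower). At washout compared to pre-treatment it was 0 of 8 by edgeR, beside 20.5% of all genes (12.5% higher, 7.96% lower), with 1 at an unadjusted p under 0.05, beside 34% of all genes. DESeq2 called 1 and limma with voomWithQualityWeights called 2 there. Of 93 genes of the pathway lists tested in AT, described below, edgeR called 13 there, DESeq2 18 and limma 22. The share of all genes called by DESeq2 or limma is not given here or below. The median log2 fold change of the 8 members was -0.29, 0.20 and -0.02 in the 3 comparisons, whereas that of all genes was 0.03, -0.00 and -0.02. The groups overlapped for every member in every comparison; the share of all genes whose groups did not overlap was 0.0748%, 2.41% and 2.27%.

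PPARGC1A, the coactivator induced by cold in brown fat, spanned 2.23 to 12.9 CPM pre-treatment (median 7.02), 2.31 to 6.11 CPM post-treatment (median 2.83) and 3.64 to 26.3 CPM at washout (median 6.05). The post-treatment libraries were crowded in the lower part of the pre-treatment range, and the washout group was stretched by 1 library, that of animal 22130. The mean was 6.92 ± 3.23 CPM pre-treatment (n = 10), 3.62 ± 1.48 CPM post-treatment (n = 9) and 8.33 ± 7.52 CPM at washout (n = 8). The level was lower post-treatment in 6 of 9 animals, with changes of -2.16 to 0.49 on the log2 scale, and the fitted log2 fold change of -0.79 (SE 0.29) was not DE (edgeR adjusted p = 0.0668). Without animal 26292, in which the level was 3.57 CPM pre-treatment and 5.04 CPM post-treatment, it was DE (-0.96, adjusted p = 0.0479). From post-treatment to washout PPARGC1A rose in 8 of 8 animals, by 0.17 to 3.19 on the log2 scale (fitted log2 fold change 1.02, SE 0.30, edgeR adjusted p = 0.0134). With each animal left out in turn this increase lay between 0.70 and 1.17 and was DE each time. In libraries of the last identifier series alone it was 0.83 and not DE (adjusted p = 0.167); what the series stands for is not given. Between pre-treatment and washout the difference was 0.23 (SE 0.29, edgeR adjusted p = 0.613).

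PPARGC1B, the second PGC-1 coactivator, covered 15.5 to 27.1 CPM pre-treatment (median 21.3), 16.4 to 38.6 CPM post-treatment (median 21.96) and 18.6 to 41.3 CPM at washout (median 25.7). The 3 groups lay over one another, and the post-treatment maximum was animal 20275 alone, the next library being at 23.5 CPM. The fitted log2 fold change was 0.01 (SE 0.16) post-treatment compared to pre-treatment, 0.28 (SE 0.17) at washout compared to post-treatment and 0.29 (SE 0.17) at washout compared to pre-treatment, with edgeR adjusted p-values of 0.986, 0.196 and 0.240. Without animal 20275 the second of these was 0.42 and DE (edgeR adjusted p = 0.0489).

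Of the receptors that the PGC-1 coactivators work with, ESRRA had the lowest coefficient of variation of the 8 members over the AT libraries (14.6%). It spanned 26.9 to 40.1 CPM pre-treatment (median 31.0), 25.9 to 36.8 CPM post-treatment (median 31.9) and 22.4 to 39.5 CPM at washout (median 28.1). Its largest fitted change was -0.20 (SE 0.10, edgeR adjusted p = 0.161), at washout compared to pre-treatment. ESRRG was expressed at a low level and varied more, from 0.572 to 5.68 CPM pre-treatment (median 2.17), 0.770 to 2.80 CPM post-treatment (median 1.70) and 0.431 to 2.35 CPM at washout (median 1.25). The 3 pre-treatment libraries above 4 CPM had no counterpart at the later time points. At washout ESRRG was below its pre-treatment level in 7 of 8 animals, and the fitted log2 fold change of -0.81 (SE 0.29) missed the threshold with the animal in the model (edgeR adjusted p = 0.0502). It passed without the animal as a block (-1.14, adjusted p = 0.0333), and without animal 20261 (-1.01, adjusted p = 0.0236). The values post-treatment compared to pre-treatment (-0.32, SE 0.26) and at washout compared to post-treatment (-0.49, SE 0.29) were not DE.

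DIO2, which converts thyroxine to the active hormone in brown fat, ranged from 3.65 to 78.7 CPM pre-treatment (median 17.8), from 3.03 to 24.5 CPM post-treatment (median 15.8) and from 3.57 to 23.3 CPM at washout (median 13.0). The pre-treatment library of animal 20456 stood far above the rest, the next being at 30.9 CPM. DIO2 was lower post-treatment in 8 of 9 animals, with a fitted log2 fold change of -0.58 (SE 0.30) that was not DE (edgeR adjusted p = 0.179). It was called by limma with voomWithQualityWeights (-0.88, adjusted p = 0.0377). From post-treatment to washout 5 of 8 animals moved down and 3 up, although the fitted log2 fold change was 0.14 (SE 0.32). Compared to pre-treatment the fitted value was -0.43 (SE 0.32), and neither was DE.

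SLC6A8, the creatine transporter, spanned 49.1 to 82.5 CPM pre-treatment (median 64.8), 29.2 to 65.7 CPM post-treatment (median 47.0) and 39.3 to 62.8 CPM at washout (median 56.2). The post-treatment group was shifted below the pre-treatment group and still overlapped it. The level fell in 9 of 9 animals, by 0.08 to 1.49 on the log2 scale, least in animal 24849 (49.1 to 46.6 CPM) and most in animal 20275 (82.1 to 29.2 CPM). The mean went from 65.1 ± 10.9 CPM (n = 10) to 46.8 ± 11.3 CPM (n = 9), with a fitted log2 fold change of -0.48 (SE 0.13, edgeR adjusted p = 0.0190). Without animal 22130 the value was -0.44 and the call was lost (edgeR adjusted p = 0.0576); in the last identifier series alone it was -0.53 (adjusted p = 0.0778). The mean at washout was 54.9 ± 7.57 CPM (n = 8), and this differed by less than the threshold from both post-treatment (0.25, SE 0.13, edgeR adjusted p = 0.147) and pre-treatment (-0.23, SE 0.13, edgeR adjusted p = 0.223).

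GATM, the first enzyme of creatine synthesis, spanned 36.0 to 83.0 CPM pre-treatment (median 59.8), 32.0 to 59.1 CPM post-treatment (median 47.1) and 38.6 to 93.4 CPM at washout (median 63.6). Values above 60 CPM were found in the pre-treatment and washout groups and not in the post-treatment group. The mean was 60.6 ± 17.1 CPM, 47.3 ± 9.05 CPM and 66.3 ± 17.2 CPM (n = 10, 9 and 8). Post-treatment it was lower in 7 of 9 animals, and the fitted log2 fold change of -0.27 (SE 0.14) was not DE (edgeR adjusted p = 0.180). GATM rose in 7 of 8 animals from post-treatment to washout (0.43, SE 0.15, edgeR adjusted p = 0.0287). This call was lost without any one of animals 20261, 20275, 21189, 22130, 24849 or 26292 (adjusted p between 0.0552 and 0.0882), and with the identifier series as a covariate (0.28, adjusted p = 0.142). Compared to pre-treatment the washout value was 0.16 (SE 0.14, edgeR adjusted p = 0.468).

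CKB, the cytosolic creatine kinase of the brain type, spanned 2.91 to 9.72 CPM pre-treatment (median 7.12), 4.72 to 17.2 CPM post-treatment (median 7.15) and 3.89 to 16.5 CPM at washout (median 8.44). The medians were close, and the upper ends of the 2 later groups lay above the pre-treatment range. CKB was higher post-treatment in 7 of 9 animals (0.42, SE 0.21, edgeR adjusted p = 0.165) and higher at washout than pre-treatment in 7 of 8 animals (0.41, SE 0.22, edgeR adjusted p = 0.201), and neither difference was DE. Post-treatment the fitted values of the 3 creatine members thus differed in sign, negative for SLC6A8 and GATM and positive for CKB.

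**Figure D1:**
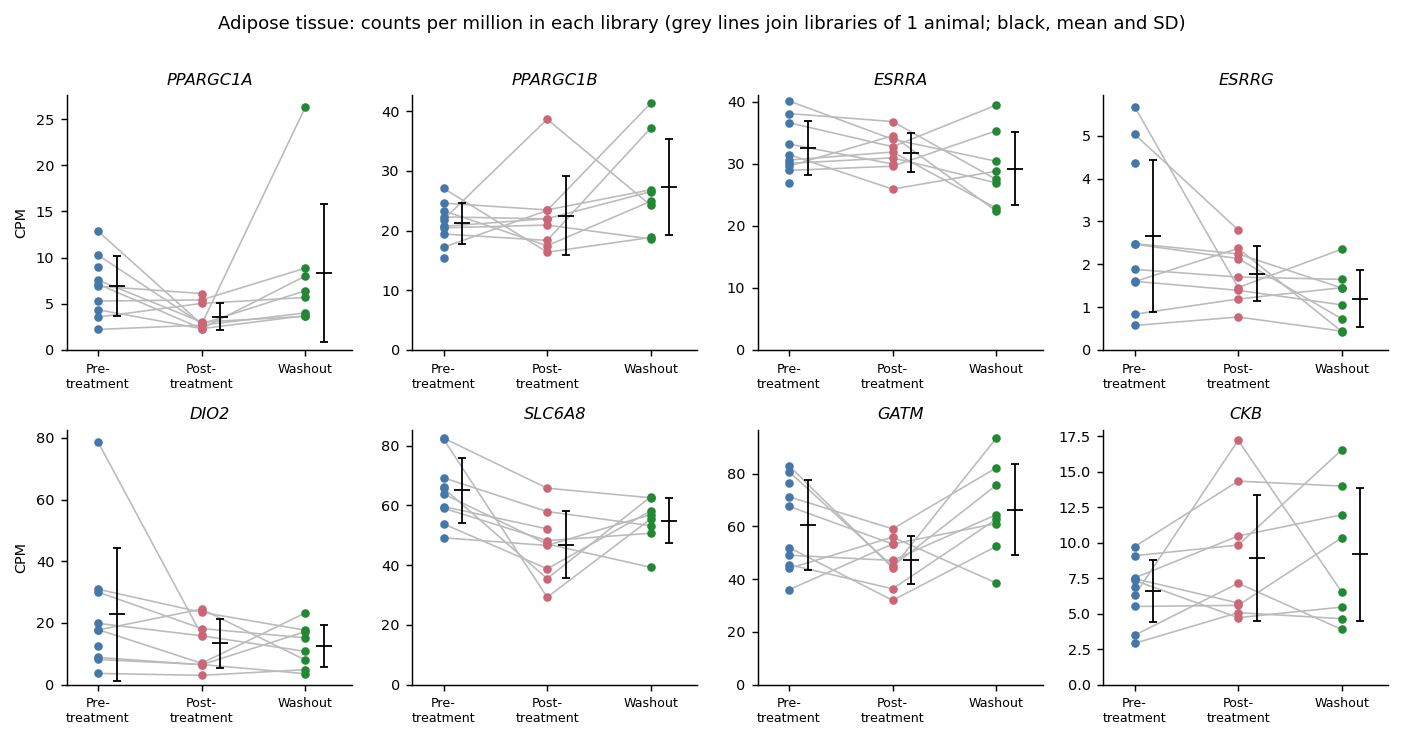
Levels of the 8 genes in AT, in CPM from 0 on the vertical axis, at the 3 time points on the horizontal axis. Each point is 1 library, grey lines join libraries of 1 animal, and bars give the mean ± SD (n = 10, 9 and 8), cut at 0 where they would go below it. SLC6A8 ran downward from pre-treatment to post-treatment in 9 of 9 animals, PPARGC1A ran upward from post-treatment to washout in 8 of 8, and single libraries reached 78.7 CPM for DIO2 and 26.3 CPM for PPARGC1A.

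AT is a mixture of cells, and in bulk samples fewer cells of a type and less RNA per cell cannot be told apart. Post-treatment, 3 of 5 adipocyte markers were DE lower (LEP -1.93, LPL -0.71 and PLIN1 -0.62 on the log2 scale), and the sum of the 5 was 22167 to 48659 CPM pre-treatment (median 28151) and 14373 to 35914 CPM post-treatment (median 23957). Of 10 macrophage markers 3 were DE higher post-treatment and 10 DE lower at washout compared to post-treatment; their sum was 626 to 2367 CPM pre-treatment (median 1299), 953 to 5319 CPM post-treatment (median 2577) and 393 to 2183 CPM at washout (median 656). The 8 progenitor and fibroblast markers, 2 of them DE higher post-treatment and 3 DE lower from there to washout, had median sums of 19153, 28164 and 17384 CPM. The erythroid markers moved down and up again, with 1 of 3 tested DE lower post-treatment and 3 of 3 DE higher from there to washout (median log2 fold change -1.66 and 1.69). Their sum had medians of 2677, 851 and 5107 CPM and overlapping ranges, from 327 to 10553 CPM, 454 to 7643 CPM and 457 to 11988 CPM, while the alpha globin genes HBA1 and HBA2 were at 0 in every library. Of 6 markers each, 2 of smooth muscle and pericytes (median 0.88) and 2 of endothelial cells (0.29) were DE higher at washout compared to post-treatment. Across the 27 AT libraries, which share the animals and the time points, the log2 level of PPARGC1A had a Pearson r of -0.58 with the log2 macrophage sum and of 0.57 with the adipocyte sum. With the fibroblast sum PPARGC1A had an r of -0.47. GATM had an r of -0.66 with the macrophage sum. SLC6A8 had an r of -0.52 with the fibroblast sum, -0.47 with the macrophage sum and 0.42 with the adipocyte sum. It also had 0.37 with the smooth muscle, 0.36 with the endothelial and 0.35 with the erythroid sum. CKB had an r of -0.61 with the adipocyte sum, 0.57 with the fibroblast sum and 0.55 with the muscle fibre sum. Not every pairing is given. The part of these markers in the results was not tested.

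Beyond the members, 5 genes of a list built around creatine were DE lower post-treatment and DE higher at washout compared to post-treatment. The list also takes in genes of adenine nucleotides, such as AK1 and SLC25A4, and a taurine transporter. Of 11 genes tested from a list of 13 for creatine synthesis, kinases and phosphocreatine hydrolysis, 5 fell and 0 rose post-treatment, and the median log2 fold change was -0.39, where 15.5% of all genes were DE and their median was 0.03. From post-treatment to washout 5 rose and 1 fell, with a median of 0.26, where 35.4% of all genes were DE. Compared to pre-treatment, 0 of 11 were DE at washout by edgeR, with 0 at an unadjusted p under 0.05, 0 by DESeq2 and 1 by limma with voomWithQualityWeights. Under library size alone the counts were 5 and 0, 5 and 1, and 0, and the medians -0.36, 0.34 and 0.06, against 0.06, 0.07 and 0.08 for all genes. Without animal 21189 the count that fell post-treatment was 3, and it was also 3 in the last identifier series alone.

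CKMT1B, a mitochondrial creatine kinase, fell from 12.2 ± 4.19 CPM pre-treatment to 3.79 ± 3.22 CPM post-treatment (log2 fold change -1.96, SE 0.35, edgeR adjusted p = 0.00282), in 9 of 9 animals. It then rose to 13.7 ± 4.39 CPM at washout in 8 of 8 animals (2.17, SE 0.37, edgeR adjusted p = 0.000252). Its counts are uncertain because CKMT1A is a near-identical copy and reads could be split between them. ALPL, the tissue-nonspecific alkaline phosphatase that has been placed at the phosphocreatine hydrolysis step, fell in 9 of 9 animals, from 16.3 ± 7.93 CPM to 6.52 ± 3.27 CPM (-1.36, SE 0.16, edgeR adjusted p = 0.000229), and rose in 8 of 8, to 17.6 ± 11.2 CPM (1.35, SE 0.17, edgeR adjusted p = 1.93e-05).

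AK1, an adenylate kinase, fell in 9 of 9 animals from 19.7 ± 4.47 CPM to 10.8 ± 4.33 CPM (-0.89, SE 0.18, edgeR adjusted p = 0.00496) and rose in 7 of 8 to 19.9 ± 4.44 CPM (0.98, SE 0.19, edgeR adjusted p = 0.000576). CKMT2, the sarcomeric mitochondrial creatine kinase, fell in 8 of 9 animals, from 2.38 ± 1.14 CPM to 1.25 ± 0.419 CPM (-0.90, SE 0.25, edgeR adjusted p = 0.0243), and rose in 8 of 8 to 3.29 ± 1.76 CPM (1.35, SE 0.26, edgeR adjusted p = 0.000591). The decrease of CKMT2 was not called without the animal as a block (-0.92, adjusted p = 0.0545), nor without animal 21189 (-0.76, adjusted p = 0.0705) or animal 26292 (-0.80, adjusted p = 0.0676). AK1 and CKMT2 are muscle genes too. Of 10 muscle fibre markers, 0 were DE in AT post-treatment and 1 was DE higher from there to washout. Their sum had a median of 130 CPM pre-treatment, 135 CPM post-treatment and 193 CPM at washout, where it reached 521 CPM. TNNT3 alone had a median of 74.9 CPM over the AT libraries. The part of muscle in the changes of AK1 and CKMT2 was not tested. SLC25A4, an ADP/ATP carrier of the mitochondrial inner membrane, was DE lower post-treatment (-0.30, SE 0.09, edgeR adjusted p = 0.0277) and higher at washout (0.26, SE 0.09, edgeR adjusted p = 0.0319). The first call was lost without animal 21189 (adjusted p = 0.0537) or animal 22130 (-0.24, adjusted p = 0.100), and the second without 20275, 21189, 21866, 22130 or 24849 (0.21 to 0.26). GAMT, the second enzyme of creatine synthesis, was not DE (-0.39, SE 0.14, edgeR adjusted p = 0.0650). The taurine transporter SLC6A6 was the member of the list that fell at washout (-1.03, SE 0.27, edgeR adjusted p = 0.00633), after 446 ± 264 CPM post-treatment.

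**Figure D2:**
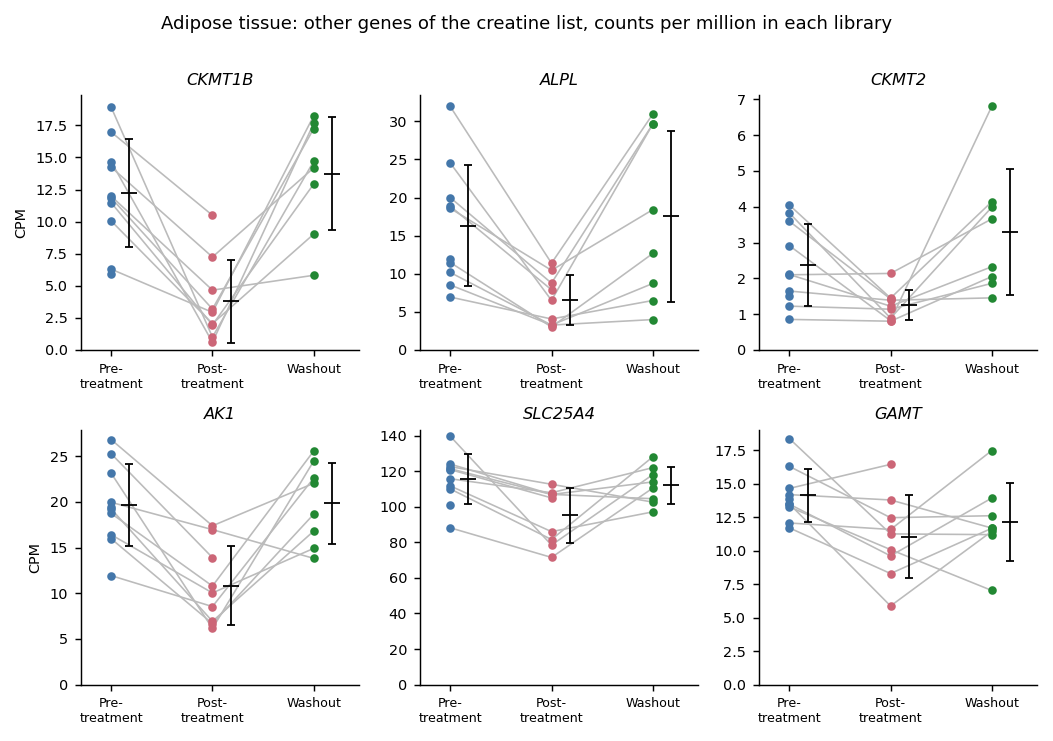
Levels of 6 other genes of the creatine list in AT, in CPM from 0 on the vertical axis, at the 3 time points on the horizontal axis. Points are libraries, grey lines join libraries of 1 animal and bars give the mean ± SD (n = 10, 9 and 8). ALPL, CKMT1B and AK1 were lower post-treatment than pre-treatment in 9 of 9 animals, and the mean of ALPL went from 16.3 to 6.52 and to 17.6 CPM.

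UCP1 was looked up outside the rule for named genes, after its values were seen, because it is the classical brown fat uncoupler. It had 0 to 107 counts per AT library, with 1 post-treatment library at 0, and mean levels of 1.46 ± 1.86 CPM pre-treatment (n = 10), 0.523 ± 0.487 CPM post-treatment (n = 9) and 0.885 ± 0.698 CPM at washout (n = 8). Post-treatment it was lower in 7 of 9 animals, and the log2 fold change of -1.28 (SE 0.53) was not DE (edgeR adjusted p = 0.0922). It was called when only the 2 time points compared entered the fit (-1.28, adjusted p = 0.0478). The study, which used limma with voomWithQualityWeights, reported that UCP1 was significantly decreased post-treatment. In SM it had at most 4 counts in any library.

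Among 16 targets of ERR and PGC-1, mitochondrial except for VEGFA, 1 rose and 5 fell in AT post-treatment. Their median was -0.26, and 15.5% of all genes were DE. CS, the citrate synthase that opens the tricarboxylic acid cycle, fell by 0.55 on the log2 scale, IDH3A of the same cycle by 0.51 and ACADM of fatty acid oxidation by 0.42. PDK4, which restrains pyruvate oxidation, rose (1.12, SE 0.19, edgeR adjusted p = 0.00235). The count that fell was 3 without animal 21189, 3 without animal 22130 and 3 without the pre-treatment library of animal 20275, and ACADM was not called without 20275, 20456, 21189, 22130, 23004, 24849 or 26292. Once treatment stopped 5 rose and 2 fell, beside 35.4% of all genes DE: CS (0.47) and VEGFA, an angiogenic factor (1.07), were among the first, and PDK4 (-1.29) and SOD2 of mitochondrial superoxide defence (-0.89) were the second. Between pre-treatment and washout 1 rose, VEGFA (0.74), and 0 fell by edgeR, beside 20.5% of all genes DE. Without animal 24849 the number that fell was 1.

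Of 25 genes for brown and beige fat identity and thermogenesis, 1 rose and 4 fell in AT post-treatment, and the median was 0.12; the share of all genes DE was 15.5%. PPARG, the master regulator of adipocytes, fell from 309 ± 63.4 CPM to 195 ± 53.1 CPM (-0.70, SE 0.16, edgeR adjusted p = 0.0111). The amino acid carrier SLC36A2 (-1.27, at 3.92 CPM pre-treatment) and the fatty acid elongase ELOVL3 (-1.16, at 1.35 CPM pre-treatment) fell too, both from low levels, and ZNF516, a transcription factor, rose (0.47). The count that fell was 2 without animal 21189, 21866, 22130, 24849 or 26292, where SLC36A2 was no longer called, and the count that rose was 2 without animal 23004. After treatment 4 rose by washout, with SLC36A2 (1.61) and ELOVL3 (1.05) in front, and 3 fell, among them the progenitor marker PDGFRA (-1.55) and the glycerol kinase GK (-0.85), so that 7 of 25 were DE beside 35.4% of all genes. Without animal 20275, 21866, 22130 or 24849 the count that rose was 2, and without animal 21189 the count that fell was 1, and GK was not called without 20275 or 21189. Between pre-treatment and washout ZNF516 rose (0.31) and PDGFRA fell (-1.43), beside 20.5% of all genes DE. The number that rose there was 0 without 20261, 20456, 21866, 22130, 23004 or 26292 and 2 without 20275 or 21189.

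Among 22 partners and regulators of PGC-1 and ERR, 1 rose and 1 fell in AT post-treatment, when 15.5% of all genes were DE. PPRC1, the PGC-1-related coactivator, rose (0.38, SE 0.11, edgeR adjusted p = 0.0260), and PRKAA2, a catalytic subunit of AMP-activated kinase, fell (-0.71, SE 0.18, edgeR adjusted p = 0.0154). The number that rose was 0 without animal 20275, 21189 or 22130 and 2 without animal 24849 or 26292, and PPRC1 itself was not called without any one of the first 3 or without 24849. From post-treatment to washout 3 rose and 5 fell, and these 8 of 22 are a share near the 35.4% of all genes. KAT2A, the acetyltransferase GCN5 that restrains PGC-1 alpha, rose from 51.3 ± 15.7 CPM to 134 ± 17.3 CPM (1.38, SE 0.18, edgeR adjusted p = 2.26e-05). The corepressor NCOR1 fell by 0.76, the transcription factor YY1 by 0.46 and the Mediator subunit MED1 by 0.43. Against pre-treatment, 3 rose and 4 fell at washout, among them KAT2A (1.43), NCOR1 (-0.79), PRKAA2 (-0.63, not called without the pre-treatment library of animal 20275) and MED1 (-0.45), where 20.5% of all genes were DE. The number that rose was 5 without animal 24849, and 6 under library size alone.

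The 3 remaining lists were short, and their counts stand beside 15.5% of all genes DE post-treatment, 35.4% from there to washout and 20.5% from pre-treatment to washout. Of 8 genes of thyroid hormone activation and action, 1 fell post-treatment, THRSP, a hormone-responsive gene of lipid synthesis (-1.91, SE 0.47, edgeR adjusted p = 0.0150), and it rose again at washout (2.31). There 3 fell, SLC16A10 (-1.71), a hormone transporter, and the coactivator NCOA1 (-0.29, not called without animal 23004) among them, and NCOA1 was also below pre-treatment (-0.32), and under library size alone it was DE in neither (-0.22 and -0.21). Without animal 20456 the number that rose post-treatment was 1 and the number below pre-treatment at washout was 2. Of 7 lipid droplet genes related to CIDEA, 2 fell post-treatment, the lipolysis inhibitor G0S2 (-0.86) and the droplet coat gene PLIN1 (-0.62), 2 fell from there to washout, PLIN2 (-0.77) and the lipase MGLL (-0.52), and 0 rose in either.

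These counts of 2 changed with single animals. The first was 1 without 20261, 20275, 21866, 22130, 24849 or 26292. PLIN1 was also lost without 21189. The second was 0 without 20261, 21189 or 26292 and 1 without 20275 or 21866, and 1 lipid droplet gene rose without 23004 or 26292. Against pre-treatment, 0 of the 7 were DE at washout by edgeR, with 2 lower by DESeq2 and 3 lower by limma; 1 was lower without 20456 or 21189 and 2 without 24849. Of 4 genes of calcium cycling, SLN fell post-treatment from a low level (-1.70, at 4.81 CPM pre-treatment). SLN (1.22), PLN (1.42) and ATP2A3 (0.48) rose from there to washout, 1 of the 3 without animal 21866 and SLN not without 24849, and PLN (1.42) and ATP2A3 (0.53) were above pre-treatment.

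In SM, 0 of 8 members were DE by edgeR at any comparison. Of 90 genes of the pathway lists tested there, 0 were DE by edgeR in any of the 3 comparisons, with 4, 15 and 13 at an unadjusted p under 0.05, and DESeq2 called 2 at washout compared to pre-treatment. Post-treatment compared to pre-treatment 0% of all genes were DE, with 3.25% at an unadjusted p under 0.05, and 0 members had an unadjusted p under 0.05 or were DE by DESeq2 or limma. At washout 0.19% of genes were DE compared to post-treatment and 0.0634% compared to pre-treatment, with 1 member at an unadjusted p under 0.05 in each (17.3% and 13.4% of all genes), DESeq2 calling 1 and 0 and limma 0 and 0. The share of genes whose groups did not overlap was 0.00793%, 0.705% and 1.51% in the 3 comparisons, and the groups of every member overlapped. The median log2 fold change of the 8 members was 0.18, 0.18 and 0.28, and that of all genes -0.02, -0.03 and -0.05. Library size alone moved the median of all genes to -0.16 at washout compared to post-treatment.

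The SM libraries differed in the summed level of muscle fibre markers. In 4 post-treatment libraries the sum of muscle fibre markers was 60676 CPM (animal 21189), 106457 (24849), 108932 (21866) and 126964 (20275), and in the other 4 it was 232311 to 272392 CPM, compared to 146409 to 254377 CPM pre-treatment and 159057 to 229776 CPM at washout. The sum of 8 fibroblast markers was 16954, 4761, 14162 and 7235 CPM in the same 4 libraries and 267 to 589 CPM in the other 4. It was 478 to 4904 CPM pre-treatment, where animal 24849 was the highest, and 407 to 4471 CPM at washout. Of the post-treatment libraries 5 were of the first identifier series and 3 (21189, 21866 and 24849) of the last, and 6 of 7 washout libraries were of the last. Less muscle in a biopsy and less of these transcripts per fibre cannot be told apart. The part of either in the results below was not tested. Without the post-treatment library of animal 21189, 0 of 8 members were DE in each SM comparison.

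PPARGC1A in SM spanned 17.3 to 264 CPM pre-treatment (median 27.9), 14.4 to 147 CPM post-treatment (median 37.9) and 23.5 to 139 CPM at washout (median 49.2). Animal 20275 held the highest value both pre-treatment, where the next library was at 31.7 CPM, and post-treatment, where the next was at 63.9 CPM. The fitted log2 fold change was 0.17 (SE 0.32) post-treatment and 0.50 (SE 0.32) at washout, each compared to pre-treatment. PPARGC1B came nearest to a call. It spanned 14.6 to 24.8 CPM pre-treatment (median 18.4), 11.6 to 29.0 CPM post-treatment (median 17.7) and 18.9 to 42.0 CPM at washout (median 26.8). Washout values lay above post-treatment ones in 6 of 7 animals (0.69, SE 0.19, edgeR adjusted p = 0.129) and above pre-treatment ones in 6 of 6 animals, by 0.25 to 1.07 on the log2 scale (fitted 0.59, SE 0.20, edgeR adjusted p = 0.274). With the identifier series as a covariate both differences were DE (1.08, adjusted p = 0.0061, and 0.89, adjusted p = 0.0224).

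ESRRA in SM spanned 46.3 to 134 CPM pre-treatment (median 78.4), 28.0 to 165 CPM post-treatment (median 99.4) and 59.5 to 161 CPM at washout (median 90.9). The post-treatment range enclosed both of the others. ESRRG ranged from 1.53 to 7.27 CPM (median 2.53), from 1.68 to 7.10 CPM (median 4.10) and from 1.27 to 7.65 CPM (median 3.52). Post-treatment compared to pre-treatment the fitted log2 fold change was 0.19 (SE 0.32) for ESRRA and 0.50 (SE 0.32) for ESRRG. DIO2 spanned 1.39 to 9.82 CPM (median 6.40), 2.49 to 29.1 CPM (median 8.50) and 3.39 to 11.4 CPM (median 8.34), and its highest value came from the library of animal 21189, the lowest in muscle fibre markers. Its fitted change post-treatment was 0.63 (SE 0.41, edgeR adjusted p = 0.9996).

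SLC6A8 in SM, where creatine is taken up from the blood, spanned 176 to 268 CPM pre-treatment (median 205), 64.7 to 265 CPM post-treatment (median 172) and 183 to 276 CPM at washout (median 253). GATM spanned 244 to 643 CPM (median 360), 81.3 to 605 CPM (median 266) and 185 to 605 CPM (median 373). For both genes the lowest post-treatment value was the library of animal 21189. Post-treatment compared to pre-treatment the fitted values were -0.29 (SE 0.25) for SLC6A8 and -0.38 (SE 0.33) for GATM. CKB was close to the floor of detection, with 3 to 26 counts per library pre-treatment, 2 to 234 post-treatment and 0 to 37 at washout. Its highest level, 9.57 CPM, was again the post-treatment library of animal 21189, and the next was 1.94 CPM. Its log2 fold change of 1.17 (SE 0.72) post-treatment was not DE (edgeR adjusted p = 0.9996).

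**Figure D3:**
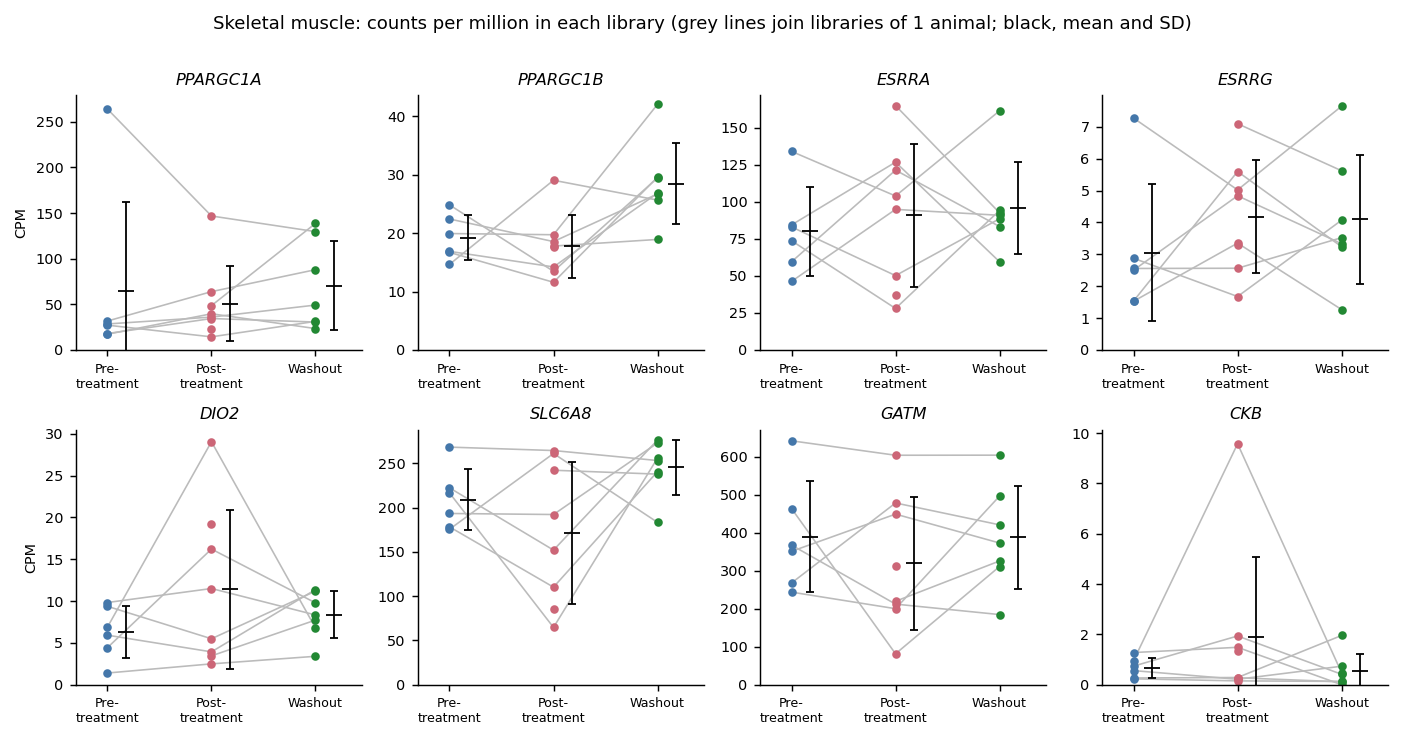
Levels of the 8 genes in SM, in CPM from 0 on the vertical axis, at the 3 time points on the horizontal axis. Points are libraries, grey lines join libraries of 1 animal and bars give the mean ± SD (n = 6, 8 and 7), cut at 0 where they would go below it. The groups overlapped for every gene, PPARGC1A reached 264 CPM in 1 pre-treatment library, and CKB reached 9.57 CPM in 1 post-treatment library.

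Over the 21 SM libraries, 5 members had levels that ran with or against the sum of muscle fibre markers in the library. The Pearson r of log2 level with the log2 sum of muscle fibre markers was 0.91 for SLC6A8, 0.72 for ESRRA and 0.67 for GATM. It was -0.86 for CKB and -0.77 for DIO2. For PPARGC1B, ESRRG and PPARGC1A it was 0.46, 0.23 and 0.19. With the fibroblast sum the signs were the other way round, 0.86 for DIO2, 0.85 for CKB and -0.82 for SLC6A8. The libraries share animals, and both sums and levels are shares of the same total counts, so that these values are descriptions only.

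**Figure D4:**
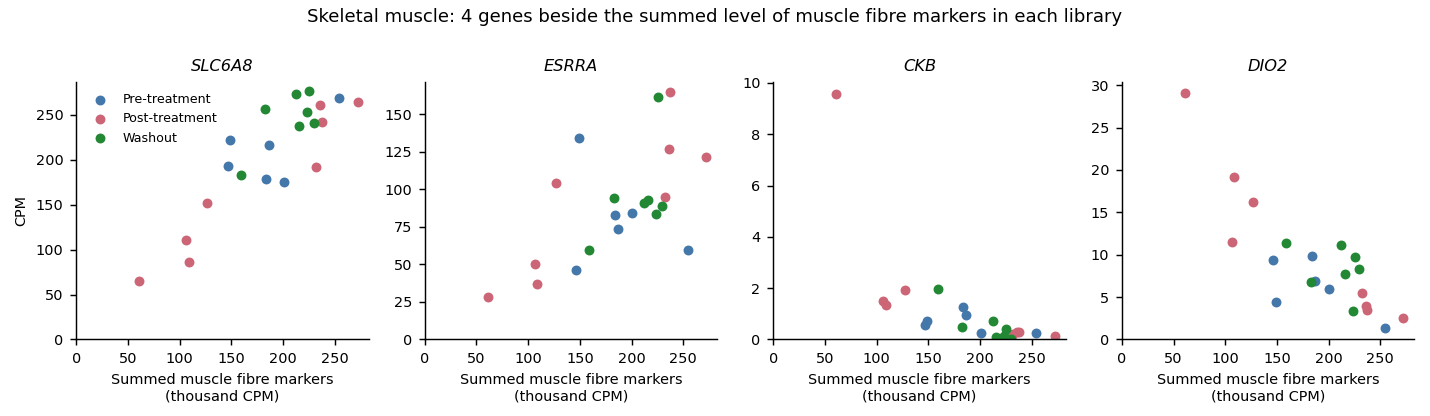
Levels of SLC6A8, ESRRA, CKB and DIO2 in CPM (vertical axes) beside the summed level of 10 muscle fibre markers (horizontal axes, in units of 1000 CPM) in the 21 SM libraries, coloured by time point. The 4 post-treatment libraries with the lowest sums, 60676 to 126964 CPM, lay at the low end for SLC6A8 and at the high end for DIO2.

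Whether the change in AT differed from that in SM was tested directly, over 12322 genes. From pre-treatment to post-treatment 0 of 8 members differed between the tissues by edgeR (0.0487% of all genes did), with 2 at an unadjusted p under 0.05 (10.6% of all genes) and 0 by DESeq2 or limma. These 2 were DIO2, at -1.23 (SE 0.52, edgeR adjusted p = 0.383), and PPARGC1A, at -0.99 (SE 0.45, edgeR adjusted p = 0.415), the AT change minus the SM change. For SLC6A8, DE in AT and not in SM, the difference was -0.25 (SE 0.28, edgeR adjusted p = 0.799), and so the 2 tissues were not shown to differ. For the change from post-treatment to washout it was 0 of 8, beside 22.7% of genes, with 0 at an unadjusted p under 0.05 (34.8% of all genes) and 0 by DESeq2 or limma. From pre-treatment to washout it was 0 of 8, beside 17.5% of genes (9.13% higher, 8.38% lower), with 2 at an unadjusted p under 0.05 (30% of all genes), 1 by DESeq2 and 2 by limma. ESRRG was nearest to the threshold there (-1.19, SE 0.43, edgeR adjusted p = 0.0541) and passed it without the animal as a block (-1.64, adjusted p = 0.0416).

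**Figure D5:**
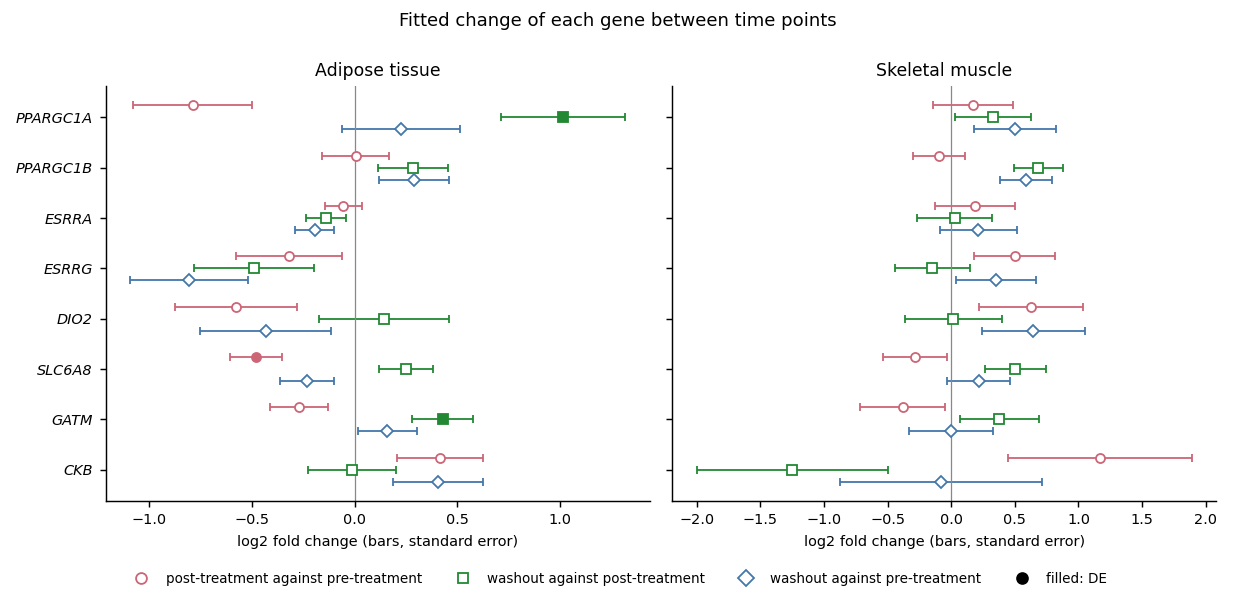
Fitted log2 fold change of each gene (horizontal axis, with its SE as a bar) in AT on the left and SM on the right, on separate scales, for the 3 comparisons of time points. Filled symbols mark DE values: SLC6A8 post-treatment (-0.48) and PPARGC1A (1.02) and GATM (0.43) at washout compared to post-treatment, all in AT.

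Among themselves the members were weakly related in AT. The Pearson r of log2 CPM over 27 libraries ran from -0.42 for ESRRA with GATM to 0.47 for DIO2 with ESRRG. In SM, over 21 libraries, it ran from -0.76 for CKB with SLC6A8 to 0.77 for ESRRA with SLC6A8. It was 0.70 for CKB with DIO2, and these libraries differed in the sum of muscle fibre markers. Libraries of 1 animal are not independent, and these values are descriptions.

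The genes whose level was most like that of a member were taken as the 2 with the highest Pearson r of log2 CPM. Over the 27 AT libraries and 12115 genes, SLC6A8 was most like AKT2 (0.91) and LAMB3 (0.89), and ESRRA most like COMTD1 (0.86) and TMUB1 (0.84). GATM was followed by PAIP1 (0.83) and NUGGC (0.77), and PPARGC1A by CCNH (0.81) and C1orf101 (0.80). CKB was nearest to CACNB3 (0.79) and CPZ (0.78), ESRRG to CIZ1 (0.74) and CDC42EP4 (0.72), PPARGC1B to SAMSN1 (0.72) and MBD4 (0.69), and DIO2 to SMAP1 (0.69) and WRB (0.69). DIO2 and PPARGC1B had the lowest values of the 8.

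Over the 21 SM libraries and 11121 genes the values were higher. ESRRA was most like ATP5B (0.96), a subunit of the mitochondrial ATP synthase, and SLC25A11 (0.95), a mitochondrial carrier. SLC6A8 was most like LDB3 (0.96), a protein of the Z-disc, and SCN4A (0.96), the sodium channel of skeletal muscle. CKB was nearest to MARVELD1 (0.93) and SLC22A17 (0.92), and DIO2 to ITGBL1 (0.92) and TANC2 (0.91). PPARGC1A was nearest to SETDB2 (0.90) and FLCN (0.87), GATM to RASGRP3 (0.88) and KBTBD13 (0.84), ESRRG to SLC16A1 (0.85) and NUDT13 (0.85), and PPARGC1B to ZBED4 (0.81) and PTPRM (0.80). With Spearman's rho in place of Pearson's r, CCNH remained among the 2 nearest genes of PPARGC1A in AT, and SETDB2 among those in SM.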

How the data were processed

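The deposited table held raw read counts per gene, not normalized, made by the authors from stranded mRNA libraries (paired-end reads of punch biopsies) that were aligned with STAR to the MacaM genome, with macaque genes given the symbol of their human homolog. The counting tool and its strand setting are not given in the sources used here. Dropping repeat entries left 16033 of 16103 entries. Of 51 labelled samples, 3 SM samples were not analysed here, nor were PRDM16 and CIDEA.

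A gene was tested in a tissue where 10% or more of that tissue's libraries reached 0.5 CPM, which held for 13367 genes in AT and 12617 in SM, with edgeR 4.0.16 in R 4.3.3 (TMM, robust quasi-likelihood tests, 1 fit per tissue over the 3 time points with the animal as a block). Tissue differences were fitted jointly. log2 CPM used a prior count of 2. The fits were tested on simulated data. At these depths (median total count 18578869) the spread beyond counting error limits most members, and counting error limits CKB in SM. Nothing in the labels gives more than 1 library per animal, tissue and time point. With the animal in the model, the spread left is that of changes within animals, in which biopsy and library differences cannot be told apart.

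The pairing by animal comes from the labels. After removal of time point means, libraries of 1 animal had a median r of 0.352 in AT (25 pairs), against -0.0354 for 217 pairs of different animals, and of 0.279 in SM (19 pairs), against -0.0464 (127 pairs).

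The members and the gene lists were chosen with earlier results of these data known. Named were every member, and from each list up to 4 DE genes per comparison with the largest log2 fold change and a mean of at least 1 CPM; the creatine list is described more fully, and UCP1, SLC25A4, GAMT, LEP and LPL were added after their values were seen. Alternatives were DESeq2 1.42.0, limma 3.58.1 (voomWithQualityWeights, as in the study), library size alone, other filters on low counts, no animal block, the identifier series of the libraries as a covariate, the last series alone, no fold change limit, only 2 time points, each animal left out, and AT without the pre-treatment library of animal 20275. Added after the data were seen were edgeR's earlier quasi-likelihood method and SM without the post-treatment library of animal 21189. Python 3.11.15 with NumPy 2.4.6, pandas 2.3.3 and matplotlib 3.10.9 was used for descriptions.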

Additional observations from a re-analysis of the deposited data

Results flagged for a closer look

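In 11 of 48 groups of libraries (8 genes, 2 tissues, 3 time points) the highest or lowest library lay further from its neighbour than Dixon's 95% critical value allows. Chance flags about 1 in 20 groups where values are normally distributed. The values here were CPM, not put on a log scale, and skew can raise that rate. Flags of 1 library or animal are not independent. Animal 20275 held 5 of the flagged values. In SM these were PPARGC1A at 264 CPM pre-treatment (next 31.7) and 147 CPM post-treatment (next 63.9), ESRRG at 7.27 CPM pre-treatment (next 2.88), and ESRRA at 161 CPM at washout (next 94.2). In AT it was PPARGC1B at 38.6 CPM post-treatment (next 23.5).

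Animal 22130 held 3, all at washout. PPARGC1A in AT stood at 26.3 CPM (next 8.87), CKB in SM at 1.96 CPM (next 0.734), and SLC6A8 in SM at 183 CPM, the lowest of its group (next 238). That SM library also had the lowest sum of muscle fibre markers at washout, 159057 CPM.

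The other 3 came from 3 animals. CKB in SM post-treatment stood at 9.57 CPM in animal 21189 (next 1.94), in the library with the lowest muscle fibre sum of all, 60676 CPM. PPARGC1B in SM post-treatment stood at 29.0 CPM in animal 19832 (next 19.7), and DIO2 in AT pre-treatment at 78.7 CPM in animal 20456 (next 30.9).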

How the results depend on the processing

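With each animal left out in turn, the number of members DE in AT lay between 0 and 2 post-treatment compared to pre-treatment, 1 and 2 at washout compared to post-treatment and 0 and 1 at washout compared to pre-treatment. It was 0 throughout for the SM comparisons and for the difference of the tissues in the change to post-treatment, 7 for AT against SM, and 0 to 1 for the other 2 tissue differences (CKB without 22130, 2.35, and ESRRG without 20261). Counts that differed from those of the report were as follows, and the cause was not tested. DESeq2 gave 2 members in AT post-treatment (PPARGC1A, adjusted p = 0.0300, and SLC6A8), 1 at washout compared to pre-treatment (ESRRG, -0.78), 1 in SM at washout compared to post-treatment (PPARGC1B) and 1 for the tissue difference to washout (ESRRG). voomWithQualityWeights gave 2, 2 (ESRRG, CKB) and, for that tissue difference, 2 (ESRRG, SLC6A8). Without the replicate block it was 1 at washout compared to pre-treatment in AT and 1 for the same tissue difference (ESRRG in both), and the block changed no other count of members. Of the other genes named, the decrease in AT post-treatment was not called without it for CKMT2, SLC36A2 (adjusted p = 0.144), PRKAA2 (0.0546) and SLN (0.226), nor were the decreases of MGLL and GK and the increases of SLC25A4 and SLN from post-treatment to washout, or the decrease of PRKAA2 and the increase of ZNF516 from pre-treatment to washout. With only the 2 time points compared, 2 were DE at washout compared to pre-treatment (ESRRG and CKB, adjusted p = 0.0389 and 0.0499). The identifier series as a covariate gave 1 in AT at washout compared to post-treatment, 2 and 1 in SM at washout compared to post-treatment and pre-treatment, and 1 (PPARGC1B) and 2 (PPARGC1B, ESRRA) for the tissue differences to washout. The last series alone gave 0 in AT post-treatment, 1 at washout compared to post-treatment, and 5 in SM at washout compared to post-treatment (PPARGC1B 1.22, ESRRA 1.26, SLC6A8 1.54, DIO2 -1.30 and CKB -4.64), where 3 post-treatment libraries remain, those low in muscle fibre markers. In that SM comparison the alternatives called up to 8 of 10 macrophage and 7 of 8 fibroblast markers lower, and up to 4 of 10 muscle fibre markers higher. The share of all genes DE under each alternative is not given here, so these counts are not results about the members. The edgeR method of earlier versions, the filters and the absence of a fold change limit changed no count of members. Of the single values of members, 715 of 776 with an animal or library left out and 713 of 794 under other alternatives kept their direction and their side of the threshold.

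Of the values that turned sign, PPARGC1B in AT compared to SM was the only one DE in the report. The rest were as follows. In AT, PPARGC1B post-treatment was -0.0050 by DESeq2, -0.085 by voom, -0.0055 with at least 10 counts in every library, -0.010 with the series covariate, -0.011 in the last series, -0.050 without the pre-treatment library of 20275 and -0.11 to 0.10 with animals left out. In the last series it was also -0.024 and -0.034 at washout, compared to post-treatment and pre-treatment. DIO2 at washout compared to post-treatment was -0.097 without the block, -0.019 with 2 time points and -0.10 to 0.42 without single animals. CKB there was 0.067 by library size, 0.00048 by DESeq2, 0.19 by voom, 0.039 without the block, 0.19 with the covariate, 0.55 in the last series and -0.15 to 0.19 without single animals.

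In SM post-treatment, PPARGC1A was -0.34 without the block and -0.61 in the last series, PPARGC1B 0.058 by voom, DIO2 -0.0020 by voom, SLC6A8 0.046 by voom, ESRRA -0.13 with the covariate and -0.92 in the last series, and ESRRG -0.084 in the last series. For washout against post-treatment, DIO2 was -0.16 by library size, -0.46 without the block, -0.23 with the covariate and -1.30 in the last series, ESRRA -0.049 by library size and -0.25 by voom, and ESRRG 0.016 with the covariate and 0.30 in the last series. At washout compared to pre-treatment, PPARGC1A was -0.16 in the last series, and GATM 0.032 by DESeq2, 0.20 by voom, 0.31 with the covariate, 0.049 with 2 time points and 0.44 in the last series. Without single animals the ranges post-treatment were -0.042 to 0.46 for PPARGC1A, -0.32 to 0.10 for PPARGC1B and -0.62 to 0.0023 for GATM. For the comparisons at washout they were -0.22 to 0.42 for DIO2, -0.21 to 0.21 for ESRRA and -0.34 to 0.031 for ESRRG (against post-treatment), and -1.11 to 0.62 for CKB and -0.19 to 0.23 for GATM (against pre-treatment).

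For the tissue differences, PPARGC1B pre-treatment was 0.14 by library size. For the change to post-treatment, voom gave -0.22 for PPARGC1B, 0.32 for CKB and -0.14 for GATM, and GATM was -0.12 without the block. From post-treatment to washout, voom gave -0.19 for DIO2, 0.15 for ESRRA and -0.0027 for GATM, and the covariate -0.56 for GATM. From pre-treatment to washout, PPARGC1A was 0.075 by voom and 0.079 without the block, and GATM -0.14 by voom and -0.41 with the covariate. Without single animals the ranges for the change to post-treatment were -0.13 to 0.28 for PPARGC1B, -0.99 to 0.080 for CKB and -0.29 to 0.27 for GATM. For the change from post-treatment to washout they were -0.23 to 0.46 for DIO2, -0.42 to 0.096 for ESRRA, -0.56 to 0.054 for ESRRG and -0.11 to 0.21 for GATM, and from pre-treatment to washout -0.094 to 1.46 for CKB and -0.15 to 0.28 for GATM. Counts were low for CKB in SM (0 to 234 per library) and for ESRRG in AT (8 to 113), which limits what depth can show there.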
